A study of Mus musculus with 4 samples.

Results

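The contacts described here are the native contacts inside the topologically associating domain (TAD) on mouse chromosome 15 into which the TetO and LacO operator arrays had been placed, with the arrays themselves taken out. Members were chosen by position alone. A member was a pair of 6.4 kb bins that both lay within chr15:11347201-11884800 (mm9), with the 3 bins around LacO (chr15:11488001-11507200), the 3 bins around TetO (chr15:11635201-11654400) and the 2 bins at the Npr3 promoter (chr15:11827201-11840000) removed. This left 76 bins and 2926 bin pairs of the 103740 in the captured chromosome 15 region. They formed 3 blocks, with 22 bins before LacO (chr15:11347201-11488000), 20 bins between the arrays (chr15:11507201-11635200) and 34 bins after TetO (chr15:11654401-11884800). The values below rest on the 2778 pairs that were at least 2 bins apart.

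Tiled Capture-C, which counts how often crosslinked and cut DNA fragments of a captured region are ligated to each other, gave 4 maps of mouse embryonic stem cells (mESCs) of the E14 line, grown with LIF and with MEK and GSK3 inhibitors. Each library came from 1 clonal line or treatment. All lines came from a parental line whose own CTCF sites inside this TAD had been deleted, and all carried both arrays on 1 of 2 alleles, the tagged repressors TetR-tdTomato and LacI-eGFP, and the cohesin subunit RAD21 fused to HaloTag and an FKBP degron. Line 1A2 had no CTCF sites next to the arrays and no resistance promoters. Line 1F4 likewise had no CTCF sites but kept the promoters of its resistance cassettes. In line 1B1 each array was flanked by 3 CTCF sites (3xCTCF), with the sites of both arrays pointing at each other, and the promoters were gone. The fourth library was 1B1 after 2 h in 500 nM dTAG-13, which brings the tagged RAD21 to degradation. Each map mixes the allele with arrays and the allele without them, so a difference carried by 1 allele appears diluted. As there was 1 library per group, a difference between lines cannot be told apart from a difference between clones or library preparations, and no test across replicates was possible.

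TADs are stretches of chromatin whose parts meet each other more often than they meet the flanking sequence. Cohesin is thought to form them by extruding loops until it is stopped by CTCF bound at the ends of the domain, so that contacts between distant parts of a TAD are those that depend most on extrusion. When RAD21 is removed, extrusion stops and the contacts that remain are those of a chromatin fibre without active loop formation.

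The sequences at which the interior was interrupted were read from the reference, because the blocks are defined by them. The guide used to insert LacO matched chromosome 15 once, at chr15:11496892-11496911 on the plus strand with the motif AGG after it, and the TetO guide matched once, at chr15:11647356-11647375 on the plus strand, followed by TGG. No annotated gene overlapped either site. Capitals mark the guide's match in its native surroundings.
LacO integration site, chr15:11496862-11496944: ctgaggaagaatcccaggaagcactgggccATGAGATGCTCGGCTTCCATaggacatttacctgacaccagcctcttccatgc
TetO integration site, chr15:11647326-11647408: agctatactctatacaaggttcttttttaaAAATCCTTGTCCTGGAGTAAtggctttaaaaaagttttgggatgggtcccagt

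The interior was poor in letters that fit the CTCF core motif. Both strands of the reference were searched for the 12-letter core, and 5 of the 76 interior bins (6.58%) held a match, compared with 93 of all 456 bins of the region (20.4%). There were 3 matches in the block before LacO, 2 between the arrays and none after TetO. Just beyond the interior, the bins chr15:11334401-11340800 upstream and chr15:11891201-11897600 downstream held 2 matches each. The matches inside the interior are shown since they are the only stretches there with this core, in their 5′ to 3′ orientation with the core in capitals.
Before LacO, minus strand, chr15:11390574-11390613: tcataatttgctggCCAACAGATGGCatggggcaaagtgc
Before LacO, plus strand, chr15:11433759-11433798: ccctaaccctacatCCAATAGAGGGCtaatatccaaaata
Before LacO, plus strand, chr15:11451663-11451702: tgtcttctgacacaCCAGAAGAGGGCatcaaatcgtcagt
Between arrays, plus strand, chr15:11579648-11579687: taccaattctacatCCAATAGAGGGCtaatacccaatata
Between arrays, minus strand, chr15:11622821-11622860: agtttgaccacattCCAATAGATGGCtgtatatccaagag
A match describes letters of the reference only. The cells come from another mouse strain and had internal CTCF sites deleted, so these letters may differ or be absent in them, and CTCF binding was not measured here. All 5 matches lay outside annotated genes.

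Npr3, which encodes the natriuretic peptide receptor that clears these hormones, was the only annotated gene on interior bins. Its body (chr15:11769651-11835429, minus strand) covered 9 of the 34 bins after TetO. Tars, a threonyl-tRNA synthetase gene, lay 17.8 kb upstream of the interior, and Sub1 lay 26.3 kb downstream of it. GC content had a median of 40.6% over interior bins (37.1% to 47.7%) and 43.5% over the other bins of the region. GATC sites, where the restriction enzyme MboI cuts, numbered 16 per interior bin at the median (4 to 30) and 15 elsewhere.

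The 4 maps were of similar depth. The region held 1225535 reads in 1A2, 1558596 in 1F4, 1222239 in untreated 1B1 and 1375312 after cohesin degradation, of which 67253, 85264, 66819 and 61613 fell on interior pairs at least 2 bins apart. In each library 1 bin of the region outside the interior had no balanced value and was not used. Errors given below are Poisson errors of these reads. The reads carried no molecular identifiers, so the errors cover counting error only. Contact was expressed as observed/expected, the balanced value of a bin pair over the mean of all pairs of the region at the same genomic separation, so that 1 is the regional mean.

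Averaged over all its pairs, the interior held more contact than the region at matched separation in every library, with the lowest mean after cohesin degradation. The excess lay at 102.4 kb and beyond. In the 3 bands of separation up to 96 kb, observed/expected was below 1 in each library, at 0.885, 0.935 and 0.947 in 1A2 and at 0.916, 0.966 and 0.993 in the treated library, which was the highest of the 4 there. Mean observed/expected was 1.42 ± 0.00938 in 1A2, 1.44 ± 0.00837 in 1F4, 1.31 ± 0.00832 in untreated 1B1 and 1.17 ± 0.00957 after degradation. The 3 untreated libraries thus spanned 1.31 to 1.44, and the treated library lay below all of them. Against untreated 1B1 it was 0.894-fold, a log2 ratio of -0.16 ± 0.01. The size depended on the setting, with -0.082 as a sum of observed over a sum of expected values and -0.053 ± 0.026 with bins near a left-out bin or an end removed. The odds of a read falling in the interior, stratified by separation, were 0.933 of those in 1B1 (Mantel-Haenszel odds ratio, 95% interval 0.922 to 0.944, which compares these libraries and not the conditions).

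Pairs within a block lay closer to the regional mean than pairs between the outer blocks. Inside the block before LacO, mean observed/expected was 0.980 in 1A2, 1.03 in 1F4, 0.988 in untreated 1B1 and 1.01 after degradation. Inside the block after TetO it was 0.976, 0.985, 0.998 and 1.02 in the same order. Relative to untreated 1B1 the treated library differed by log2 ratios of 0.04 ± 0.03 before LacO and 0.03 ± 0.02 after TetO. On reads without balancing it differed by -0.057 ± 0.025 and -0.068 ± 0.018. On balanced values the ratios were 0.16 ± 0.02 and 0.07 ± 0.02, and with the sum of balanced values over the region held equal 0.39 and 0.30. As the sign depended on the measure, the direction was not settled. Inside the block between the arrays the values were 0.975 in 1A2, 1.05 in 1F4, 1.11 in untreated 1B1 and 1.02 after degradation. Here the treated library was below 1B1 by a log2 ratio of -0.13 ± 0.04, and with bins near a left-out bin or an end removed the ratio was 0.00197 ± 0.0684. On balanced values the log2 ratio was -0.0035 ± 0.033. With the sum of balanced values over the region held equal it was 0.22 ± 0.03, so the direction here was not settled either. In 1B1 this block exceeded the pairs of the block before LacO with the block between the arrays (1.06). Mean separations within the blocks were 53.3 kb before LacO, 49.1 kb between the arrays and 83.4 kb after TetO.

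Relative to the regional mean at the same separation, the 2 outer blocks contacted each other most. Pairs of the block before LacO with the block after TetO (748 pairs, mean separation 348 kb) had a mean observed/expected of 2.22 ± 0.0266 in 1A2, 2.21 ± 0.0232 in 1F4, 1.97 ± 0.0224 in untreated 1B1 and 1.49 ± 0.0263 after cohesin degradation. The treated library was again below all untreated ones, and it had 6024 reads in these pairs compared with 12314 in 1B1. Its log2 ratio to 1B1 was -0.41 ± 0.03, or 0.754-fold, and the odds ratio was 0.726 (95% interval 0.703 to 0.750). Observed/expected sets the pairs against a regional mean that itself fell at these distances. On the balanced values, the mean per pair went from 75.4 ± 0.811 to 35.7 ± 0.585, which is 0.473-fold. What remained was still 1.49 times the regional mean. With bins near a left-out bin or an end removed, which takes out the bins of highest contact, the log2 ratio was -0.23 ± 0.05.

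Pairs that reached only 1 block further behaved unequally. The block between the arrays with the block after TetO (mean separation 194.6 kb) had a mean observed/expected of 1.31 ± 0.0194 in 1A2, 1.40 ± 0.0184 in 1F4, 1.14 ± 0.0182 in untreated 1B1 and 1.05 ± 0.0193 after degradation. The log2 ratio of treated to untreated 1B1 was -0.12 ± 0.04, but -0.0049 ± 0.060 with bins near a left-out bin or an end removed. The block before LacO with the block between the arrays (153.6 kb) was nearly level, at 1.12 ± 0.0170, 1.06 ± 0.0149, 1.06 ± 0.0160 and 1.15 ± 0.0203. The treated library had the highest mean of the 4 but not the highest median, which was 1.10 in 1A2 and 1.08 after degradation. Its log2 ratio to 1B1 was 0.12 ± 0.03, but 0.027 ± 0.028 on reads without balancing, 0.048 by the median and 0.24 with bins near a left-out bin or an end removed. Its balanced mean was 0.823-fold that of 1B1. Against untreated 1B1, balanced contact in the treated library was 0.823-fold here, 0.678-fold across TetO and 0.473-fold between the outer blocks. With the sum of balanced values over the region held equal, the log2 ratios were -0.058 ± 0.033, -0.34 ± 0.03 and -0.86 ± 0.03, so the first was then within 2 counting errors of 0.

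**Figure D1:**
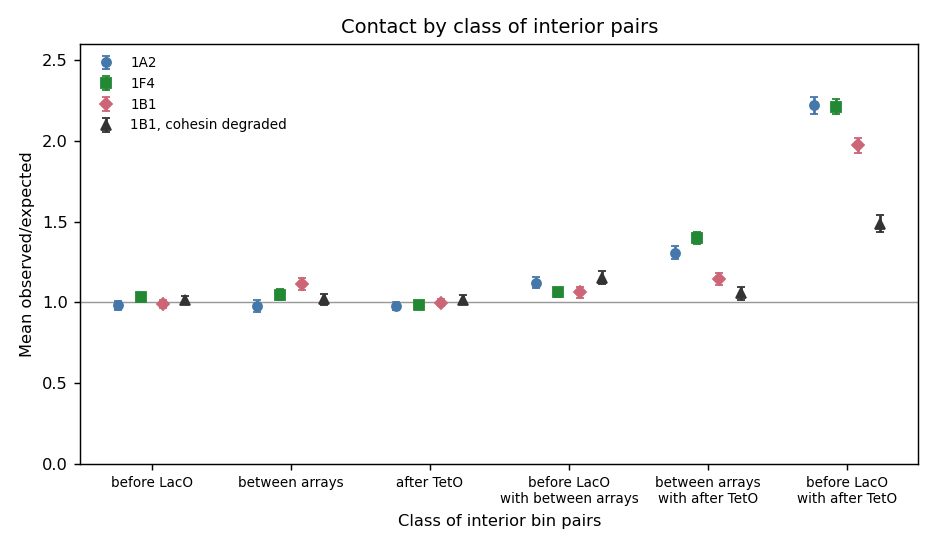
Mean observed/expected (vertical axis, 1 is the regional mean at the same separation) of the 6 classes of interior bin pairs in the 4 libraries, with bars of 2 counting errors. Pairs within a block lay between 0.975 and 1.11, and pairs of the block before LacO with the block after TetO ranged from 2.22 in 1A2 down to 1.49 after cohesin degradation.

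Line 1B1, with 3xCTCF cassettes, was compared with the lines without them. Observed/expected of the block between the arrays with the block after TetO was lower in 1B1, by log2 ratios of -0.19 ± 0.03 against 1A2 and -0.29 ± 0.03 against 1F4, whereas 1F4 was above 1A2 (1.40 and 1.31). On balanced values 1B1 differed by -0.13 ± 0.03 from 1A2 and by -0.16 ± 0.03 from 1F4. Within the block between the arrays, 1B1 was the highest library, with 1.11 ± 0.0188 in 1B1, 1.05 ± 0.0166 in 1F4 and 0.975 ± 0.0179 in 1A2. The lines without cassettes were themselves apart there, by a log2 ratio of 0.10 ± 0.04, and 1B1 was above 1F4 by 0.09 ± 0.03, so the gap to 1F4 was no larger than that between the lines without cassettes. With bins near a left-out bin or an end removed, 1B1 was above 1A2 by only 0.024 ± 0.072 and above 1F4 by 0.063 ± 0.066, within counting error. Both comparisons share the 1B1 library. Contact between the outer blocks was also lower in 1B1, by -0.17 ± 0.02 against either line, and these lines differed from each other by less (2.22 and 2.21). On balanced values the difference between the outer blocks was -0.07 against 1A2 and 0.01 against 1F4.

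The tile map resolves where in the blocks these contacts lay. With each block cut into tiles of 10 to 12 bins, the pair of tiles at the opposite ends of the interior (chr15:11347201-11417600 with chr15:11801601-11884800) had the highest observed/expected of all 28 tile pairs in each of the 4 libraries, at 3.42 in 1A2, 3.35 in 1F4, 2.75 in untreated 1B1 and 1.68 after degradation. It also had the lowest log2 ratio of treated to untreated 1B1 among the tile pairs, at -0.71 ± 0.09. Its mean balanced value went from 80.1 in untreated 1B1 to 30.5 in the treated library. Tiles with themselves at the ends of the interior lay below the regional mean in each library and were closer to it in treated than in untreated 1B1. In the last tile the values were 0.738, 0.766, 0.784 and 0.908. In the first tile they were 0.816 in 1A2, 0.843 ± 0.0163 in 1F4, 0.778 in untreated 1B1 and 0.851 ± 0.0176 after degradation. There the treated library was within counting error of 1F4. Contact across LacO between its neighbouring tiles (chr15:11417601-11488000 with chr15:11507201-11571200) was 0.896 in 1A2, 0.841 in 1F4, 0.798 in untreated 1B1 and 1.00 in the treated library, which was above 1B1 by a log2 ratio of 0.33 ± 0.07. The balanced means of this tile pair lay closer together, at 105.9, 96.2, 94.6 and 100.4 in the same order.

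**Figure D2:**
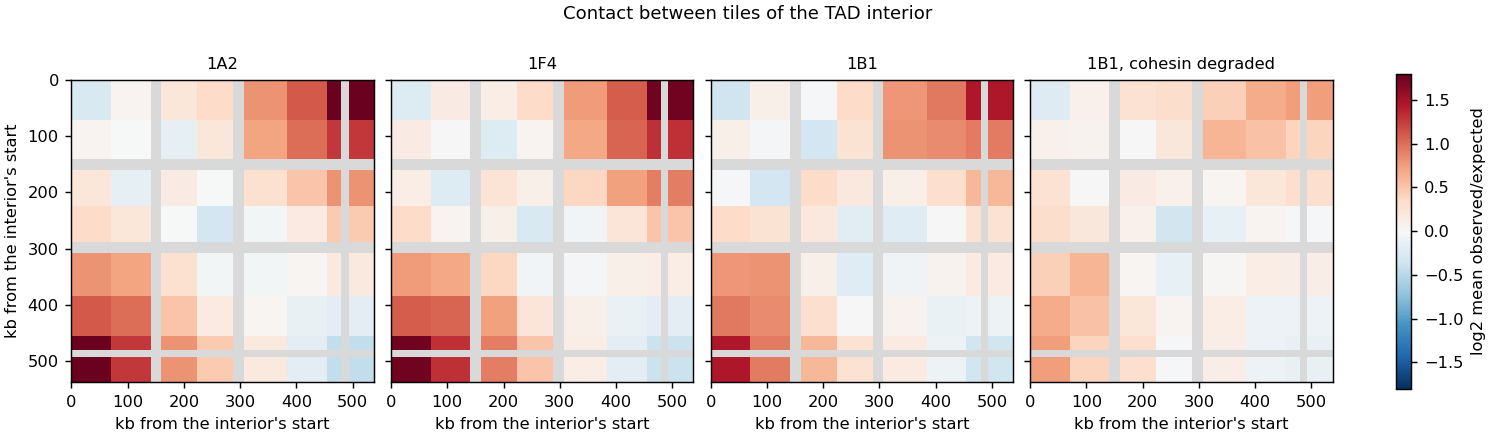
Log2 mean observed/expected (colour) between tiles of the interior, by distance from the interior's start in kb on both axes, 1 panel per library. Grey bands are the left-out bins. The corner that joins the ends of the interior was the strongest tile pair in each panel, at 2.75 in 1B1 and 1.68 in the treated library.

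Contact inside the TAD was no lower in the longest band of separations than at 204.8 to 300.8 kb in the untreated libraries. In the band of 204.8 to 300.8 kb the mean balanced value per interior pair was 72.2 in 1A2, 72.0 in 1F4 and 72.4 in 1B1, at 307.2 to 403.2 kb it was 73.0 ± 1.22, 71.1 ± 1.07 and 68.2 ± 1.17, and in the band of 409.6 to 531.2 kb it was 89.6 ± 2.29, 83.7 ± 1.79 and 75.2 ± 1.86. In 1A2 and 1F4 pairs in the longest band thus met more often than pairs 204.8 to 300.8 kb apart. The longest band holds only pairs that join bins towards opposite ends of the interior. Position and separation therefore cannot be told apart in these bands or in the slopes given below. In 1B1 the band between was lower than at 204.8 to 300.8 kb by more than 2 counting errors, and the longest band was again higher. After degradation the 3 bands held 40.01 ± 0.691, 32.3 ± 0.853 and 29.2 ± 1.25. All other pairs of the region fell steadily in every library, to 26.1, 24.5, 27.8 and 17.7 in the longest band.

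**Figure D3:**
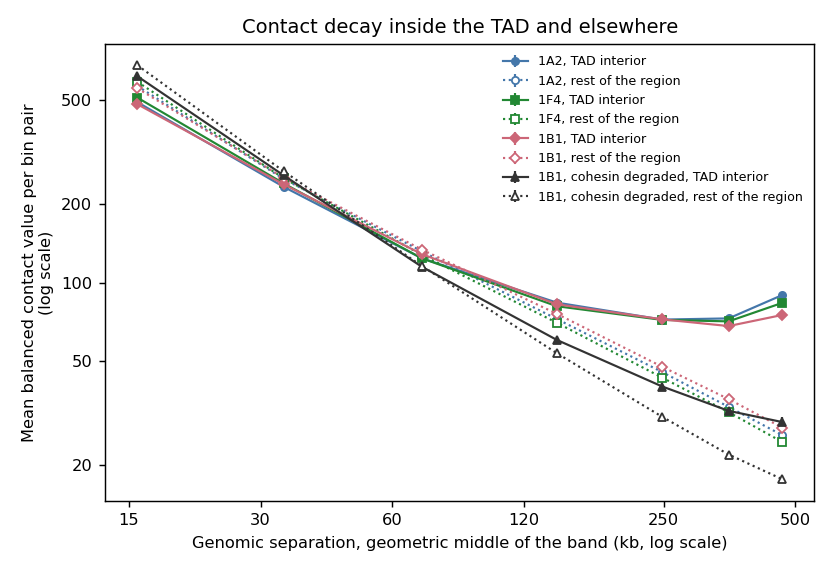
Mean balanced contact value per bin pair (vertical axis, log scale) by genomic separation (horizontal axis, kb, log scale) in 7 bands, for pairs in the interior (solid lines, filled points) and all other pairs of the region (dotted lines, open points), with counting errors. The interior curves of the 3 untreated libraries lie between 68.2 and 73.0 at 204.8 to 403.2 kb and end between 75.2 and 89.6, whereas the curve after cohesin degradation goes on falling to 29.2.

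The difference between treated and untreated 1B1 grew with separation and had the opposite sign at the shortest distances. Interior contact at 12.8 to 19.2 kb was 483 ± 5.48 balanced units per pair in 1B1 and 619 ± 6.06 after degradation, 1.28-fold higher, compared with 1.23-fold in the rest of the region. At 25.6 to 44.8 kb it was 1.08-fold higher. From 51.2 kb on it was lower, at 0.894-fold, then 0.730-fold at 102.4 to 198.4 kb and 0.553-fold at 204.8 to 300.8 kb. The longest band was at 0.389-fold, compared with 0.634-fold for the rest of the region, and the log2 change of the interior minus that of the rest was -0.71 ± 0.07 there. Up to 198.4 kb the log2 change of the interior lay 0.03 to 0.06 above that of the rest. From 204.8 to 300.8 kb the difference of these changes was -0.22 ± 0.03. The balanced values of the region 2 or more bins apart summed to less in the treated library than in 1B1, by 0.22 on the log2 scale, and folds at all separations shift up by that amount if this sum is held equal. The direction at 51.2 to 96 kb then turns, to a log2 ratio of 0.06 ± 0.02.

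The slope of log10 contact on log10 separation summarises this. Between 12.8 and 512 kb it was -0.37 in 1A2, -0.40 in 1F4, -0.43 in untreated 1B1 and -0.83 after degradation inside the interior. Over the other pairs of the region the slopes were -0.87, -0.89, -0.85 and -1.04. The slope inside the interior of the treated library was close to those of the rest of the region in untreated cells.

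The interior was set off from its flanks in each library, to a smaller degree without cohesin. At matched separations, interior pairs had 2.72 times the observed/expected of pairs with 1 bin inside and 1 bin at least 2 bins beyond an end in 1A2, 2.83 times in 1F4, 2.35 times in 1B1 and 1.57 times after degradation. The treated value was lower than that of 1B1 by 0.58 ± 0.03 on the log2 scale, a gap more than double the widest one among untreated libraries (0.27 ± 0.02 between 1B1 and 1F4).

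The 2 ends differed in how much they changed. Across the upstream end, towards Tars, observed/expected was 0.543 in 1A2, 0.539 in 1F4, 0.587 ± 0.00588 in untreated 1B1 and 0.906 ± 0.00850 after degradation. Across the downstream end, towards Sub1, it was 0.508, 0.485, 0.538 ± 0.0109 and 0.590 ± 0.00986. Log2 ratios of interior to crossing pairs changed between 1B1 and treated 1B1 by -0.79 ± 0.02 upstream and by -0.30 ± 0.04 downstream. The upstream pairs thus came near the regional mean without cohesin, while the downstream pairs stayed well below it, and the interior remained enriched 2-fold over them.

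**Figure D4:**
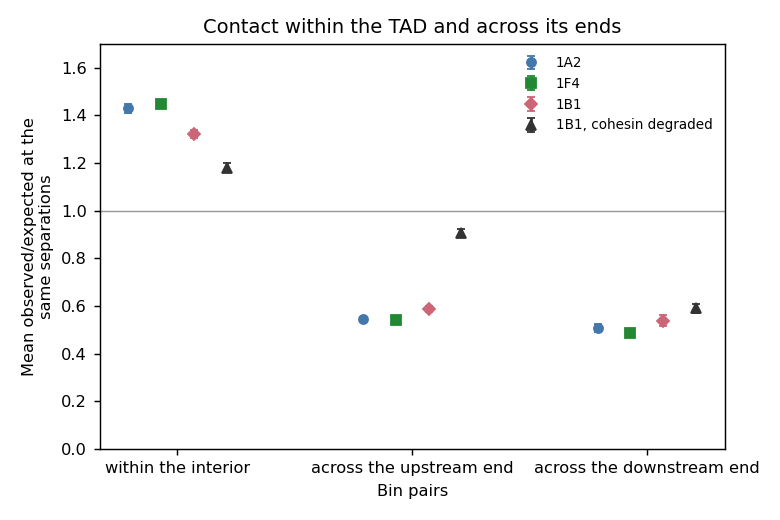
Mean observed/expected at the same separations for pairs within the interior and for pairs across its upstream and downstream ends, in 4 libraries, with bars of 2 counting errors. Untreated libraries lay between 0.485 and 0.587 across both ends. After cohesin degradation the upstream value was 0.906 and the downstream value 0.590.

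Single windows were lower after degradation mainly at long range. Windows of 3 by 3 bins with at least 20 reads on average were called when 2 libraries differed by 1.5-fold or more in observed/expected, a size criterion with no test. Between treated and untreated 1B1, 165 of 2097 interior windows were lower (7.87%, against 10.8% of all windows of the region) and 22 were higher (1.05%, against 15.3%). The share of lower windows was thus not above that of the region. Among the 888 windows 32 to 80 bins apart, 155 were lower (17.5%, against 12.8% in the region) and 2 were higher (0.225%, against 18%). Median reads per window were 100.2 in the interior and 55.5 in the region, and the part of this difference in the counts was not tested.

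Between untreated lines few interior windows passed the same criterion. From 1A2 to 1B1, 8 windows were higher (0.381%, against 4% in the region) and 60 lower (2.86%, against 2.25%). From 1F4 to 1B1, 12 were higher (0.572%, against 4.69%) and 99 lower (4.72%, against 2.11%). Between the lines without 3xCTCF, 13 windows were higher in 1F4 than in 1A2 (0.620%, against 2.21%) and 20 lower (0.954%, against 3.35%). Windows lower in 1B1 than in 1F4 had more than double the regional share. At a 2-fold criterion 2 of them (0.0954%) passed, against 0.205% in the region. With a minimum of 50 reads, windows lower in 1B1 were 2.85% against 1A2 and 4.70% against 1F4, compared with 1.05% and 1.42% in the region.

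Over all 2097 windows, log2 observed/expected of 1A2 and 1F4 had a Pearson r of 0.917. With 1B1 they gave 0.881 and 0.875. The treated library gave 0.710 with 1A2, 0.668 with 1F4 and 0.726 with 1B1. Windows overlap and share bins, so these values describe how alike the maps were and carry no test. The treated map was the least like any other, and its reads per window were also fewer at long range.

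Bin by bin, contact with the rest of the interior was highest at the ends of the TAD and lowest near its middle. The mean observed/expected of a bin with the interior bins at least 4 bins away, averaged over the 15 bins within 50 kb of an end, was 1.83 in 1A2, 1.83 in 1F4, 1.61 in untreated 1B1 and 1.29 after degradation. Over the 17 bins 200 kb or more from both ends it was 1.17, 1.19, 1.15 and 1.10. The gradient was thus present in each library and weakest without cohesin. Pearson's r of the bin values with the distance to the nearer end was -0.82 in 1A2, -0.82 in 1F4, -0.77 in untreated 1B1 and -0.43 after degradation over 76 bins, while r with GC content was 0.0898 to 0.201. These bins share reads with each other, and the values are given as a description. Bins near an end also have the most distant partners, and observed/expected was highest for distant pairs, so position and separation cannot be told apart in this gradient.

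**Figure D5:**
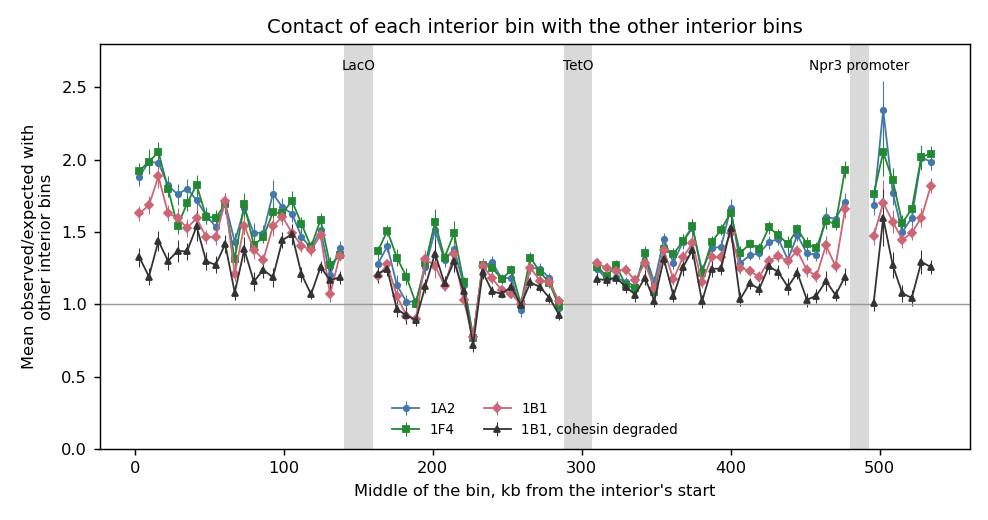
Mean observed/expected of each interior bin with interior bins at least 4 bins away (vertical axis), by the position of the bin in kb from the interior's start, with counting errors. Grey bands are the left-out bins. Values fell from the ends to the middle in each library, and the lowest bin, between the arrays, was the same in all 4.

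The bins of least contact lay between the arrays. The lowest bin was chr15:11571201-11577600, with values of 0.773 ± 0.0419 in 1A2, 0.770 in 1F4, 0.776 in untreated 1B1 and 0.720 ± 0.0510 after degradation. It was the lowest in each library, and it had the lowest GC content (37.1%) and the fewest GATC sites (4) of all interior bins, with 1149 reads in 1A2 compared with a median of 2992 per bin. The part of these features in its value was not tested. The next lowest by the mean over 1A2 and 1F4, chr15:11603201-11609600 and chr15:11628801-11635200, were at 0.958 and 0.976 in 1A2 and at 0.995 and 0.929 after degradation. None of these changed beyond 2 counting errors against 1B1.

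In the untreated libraries the highest bins lay towards the ends. The bin chr15:11360001-11366400, 12.8 kb from the upstream end, had 1.98 ± 0.0793 in 1A2, 2.05 in 1F4, 1.88 in 1B1 and 1.44 ± 0.0690 after degradation. Near the downstream end, chr15:11872001-11878400 had 2.01, 2.02, 1.60 and 1.29. Both were lower after degradation than in 1B1, by log2 ratios of -0.39 ± 0.09 and -0.31 ± 0.11. The bin chr15:11846401-11852800 had the highest mean over 1A2 and 1F4, with 2.34 ± 0.201 in 1A2 and 2.05 in 1F4, but only 504 reads in 1A2, the fewest of all interior bins, and its change after degradation was within counting error (-0.09 ± 0.22). In the treated library, bins further in were among the highest, such as chr15:11744001-11750400, 134.4 kb from an end, with 1.53, chosen after its value was seen.

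After degradation, 68 of the 76 bins were lower than in 1B1 and 33 of them by more than 2 counting errors, while none was higher by that much. This count has partners in the interior only. Taken with all bins of the region 4 to 83 bins away, 15 interior bins (19.7%) were lower by more than 2 counting errors, against 21.1% of the region's bins, and 2 (2.63%) were higher, against 18.7%. On that measure the share of lower bins was not above that of the region. With interior partners the median log2 ratio over bins was -0.13. It was -0.31 over the bins within 50 kb of an end, all 15 of which were lower, -0.22 over those 50 to 100 kb away, and -0.10 over those 100 to 200 kb away. Over the 17 bins at 200 kb or more it was -0.06, and 14 of these were lower.

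Pairs with both bins on the Npr3 body (28 pairs) had 0.928 times the observed/expected of other pairs of the block after TetO at the same separations in 1A2, 0.917 times in 1F4, 0.938 times in 1B1 and 0.906 times after degradation. The log2 ratios lay between -0.14 and -0.09 with counting errors of 0.03 to 0.04. Pairs within the gene body were thus slightly poorer in contact than the other pairs of this block in all 4 libraries. Those other pairs include ones that join the gene to sequence outside it. Treated and untreated 1B1 did not differ beyond counting error.

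Few windows of the interior stood out from their surroundings. Of 1801 windows at least 60 kb apart, 1422 had 100 reads or more in both 1A2 and 1F4, 20 of these were local maxima, and 2 exceeded the ring of bins around them 1.5-fold on average over these lines. These were 0.141% of the interior windows with that many reads, against 0.445% over the region, where maxima were taken among all windows and the same count of 2 was found in the interior. The 5 strongest were chosen on 1A2 and 1F4, so values in 1B1 and treated 1B1 are the ones not used for the choice. Errors of window/ring ratios cover the reads of the window and not those of the ring, which could reach beyond the interior. The first joined chr15:11360001-11366400 with chr15:11552001-11558400, 192 kb apart, with window/ring ratios of 1.65 ± 0.212 in 1A2, 1.68 in 1F4, 1.59 ± 0.214 in untreated 1B1 and 1.42 ± 0.235 after degradation. The second joined chr15:11353601-11360000 with chr15:11443201-11449600, 89.6 kb apart, with 1.65, 1.47, 1.58 ± 0.114 and 1.38 ± 0.113. Neither ratio in the treated library differed from 1B1 by more than 2 counting errors.

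The third, between chr15:11513601-11520000, the second interior bin after LacO, and chr15:11814401-11820800 in the Npr3 body, 300.8 kb apart, was below its ring in 1B1. Its ratio was 1.43 ± 0.124 in 1A2 and 1.46 ± 0.105 in 1F4, but 0.860 ± 0.0913 in 1B1 and 0.795 ± 0.142 after degradation. Its observed/expected was 2.33 ± 0.202 in 1A2 and 2.54 ± 0.183 in 1F4, on 170 and 235 reads, and 1.45 ± 0.154 in 1B1 on 110 reads. The window was chosen for its high ratio in 1A2 and 1F4. Lower values in the libraries not used were thus favoured by the choice, and the gap is no measure of a difference between lines. The remaining ones joined chr15:11353601-11360000 with chr15:11724801-11731200 and with chr15:11660801-11667200. They had ratios of 1.10 ± 0.109 and 1.496 ± 0.104 in 1B1 and of 1.22 ± 0.172 and 1.11 ± 0.122 after degradation. The second of these was lower after degradation than in 1B1, at a log2 ratio of -0.43 ± 0.19. This is more than 2 counting errors of the window alone, and the error of the ring was not counted. In 3 of the 5 contacts 1 anchor was the same bin, the second of the interior, and the first contact in the list used the bin next to it. The rule favoured this place, as the second bin was the outermost centre a window could have. Rings of these windows also took in bins beyond the upstream end. Observed/expected across that end was 0.587 in untreated 1B1 and 0.906 after degradation. The excess of these windows, its change and their shared anchor thus cannot be told apart from an effect of the end.

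Insulation, the mean balanced value in a square of 10 by 10 bins across a bin relative to the region on the log2 scale, dropped towards both ends in the untreated libraries. The first bin of the interior (chr15:11347201-11353600) was at -0.98 in 1A2, -1.04 in 1F4, -0.86 in untreated 1B1 and -0.24 after degradation. The last bin (chr15:11878401-11884800) was at -0.83, -0.82, -0.75 and -0.15. With squares of 20 by 20 bins the last bin was at -0.83 in 1B1 and -0.52 after degradation, and the first at -0.84 and -0.22. Both ends were thus less insulated in the treated library than in 1B1, and at the downstream end the size of the difference depended on the square.

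Between the arrays the lowest bin over 1A2 and 1F4 was chr15:11507201-11513600, directly after LacO, at -0.47, -0.63, -0.70 and -0.54. Here the left-out LacO bins remove the nearest pairs from the square, which lowers the value by construction. With observed/expected in place of balanced values, a choice made after seeing the data, the bin was at -0.13 in 1A2, -0.27 in 1F4, -0.35 in untreated 1B1 and -0.06 after degradation. On the same scale the first bin of the interior was at -1.06, -1.11, -0.92 and -0.26 and the last ranged from -1.07 in 1F4 to -0.37 after degradation, so the division next to LacO was shallower than either end in every library.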

How the data were processed

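Per the labels and the study's methods, the authors crosslinked the cells, cut with MboI, captured chromosome regions with tiled oligonucleotides, mapped reads with HiC-Pro 2.11.4 to mm9, binned valid pairs at 6.4 kb and balanced them with ICE, which gives all bins equal sums. The deposited values are thus a balanced contact signal per bin pair, and each library was scaled to the same total, so depth does not show in them. The reads were recovered by solving 1 factor per bin: 100% of values came within 0.05 of a whole read. Errors are Poisson errors of these reads.

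Python 3.11.15 with numpy 2.4.6, scipy 1.17.1, pandas 2.3.3 and matplotlib 3.10.9 was used. Each value was divided by the regional mean at its separation. Classes, bands, windows, bin profiles and insulation follow the definitions in the text, and scripts were tested on simulated data. Genes came from GENCODE and sequences from NCBIM37, whose chromosome 15 has the length in the deposited bin table. Groups came from the sample labels. The members, lists and rules were chosen with earlier results of these data known. Named items were every class of pairs, the 5 windows that most exceeded their ring on average in 1A2 and 1F4, the 3 highest and 3 lowest bins by mean profile over these lines, the bin of lowest insulation in each block, genes on interior bins and matches to the CTCF core. Tile pairs were described after their values were seen. Alternatives are given in the closing section.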

Additional observations from a re-analysis of the deposited data

How the results depend on the processing

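Contact by class and by separation, interior against crossing pairs over both ends, bin profiles, insulation, window counts and correlations were recomputed under the alternatives. Tiles, focal windows, the Npr3 body and the 2 ends taken apart were not. The limits for a move were the 95% counting interval, the spread between untreated libraries or, for counts of windows and bins, a factor of 1.5. Of 364 values, 270 moved by no more than their limit, 91 moved further and 3 that had been beyond 2 counting errors turned their direction. Among the others, 15 changed sign from a value within 2 counting errors of 0, among them treated against untreated 1B1 on reads without balancing, at -0.057 within the block before LacO and -0.068 ± 0.018 within the block after TetO. The 270 include 27 equal to the reported value, mostly under settings that leave those pairs unchanged. Differences between libraries in interior against crossing pairs stayed within the 95% counting interval in the 24 values that a setting could change. The ratios of single libraries were less stable, as 15 values moved beyond that interval and 13 did not. Observed/expected over all interior pairs kept its direction in each setting run for it. With the median over bin pairs the log2 ratio was -0.038 for 1B1 against 1A2, -0.078 against 1F4 and -0.11 for treated against untreated 1B1. As a sum of observed over a sum of expected values, which weights short separations, these were -0.036, -0.048 and -0.082. Treated against untreated 1B1 was -0.22 without balancing and -0.053 with bins near a left-out bin or an end removed, a setting that takes out the bins of highest contact. That setting also turned the block between the arrays, to -0.040 for 1F4 against 1A2 and to 0.00197 for treated against untreated 1B1, with counting errors of 0.0692 and 0.0684, and left 0.024 ± 0.072 for 1B1 against 1A2. For treated against untreated 1B1 it gave -0.23 between the outer blocks and -0.0049 ± 0.060 across TetO.

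Slopes from 4 to 40 bins were -0.58 in 1A2, -0.60 in 1F4, -0.61 in untreated 1B1 and -0.92 after degradation, in the same order as over the full range. Scaled to the same sum over the region, the change after degradation was 0.58 at 2 to 3 bins, 0.062 at 8 to 15 bins (turned from -0.16) and -1.14 at 64 bins or more. Under that scaling the log2 change of balanced values over all interior pairs also turned, from -0.20 to 0.028 ± 0.010.

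At 2-fold, windows higher numbered 0 for 1B1 against 1A2, 0 against 1F4, 0 for 1F4 against 1A2 and 2 for treated against untreated 1B1, and windows lower numbered 3, 2, 1 and 32. The lower shares were 0.143%, 0.0954%, 0.0477% and 1.53%, against 0.269%, 0.205%, 0.518% and 2.75% of the region, and the treated higher share was 0.0954% against 3.54%. With windows of 5 by 5 bins the counts were 0, 0, 0 and 10 higher and 1, 25, 0 and 49 lower. The lower shares were 0.0620%, 1.55%, 0% and 3.04%, against 0.416%, 0.375%, 1.13% and 9.39% of the region, and the treated higher share was 0.620% against 13.2%. A minimum of 50 reads gave 4, 12, 9 and 20 higher and 59, 98, 20 and 140 lower. The higher shares were 0.193%, 0.576%, 0.432% and 0.987%, against 1.52%, 1.93%, 0.982% and 11.1% of the region, and the lower shares were 2.85%, 4.70%, 0.960% and 6.91%, against 1.05%, 1.42%, 1.12% and 9.92%. Correlations over windows of 5 by 5 bins were 0.961 for 1A2 with 1F4, 0.935 and 0.916 for 1B1 with these lines, and 0.818, 0.771 and 0.846 for the treated library with 1A2, 1F4 and 1B1. For the bin after LacO, squares of 5 by 5 bins gave no insulation value. Insulation of the last interior bin in the treated library was -0.15, and -0.52 with squares of 20 by 20 bins. Depth limits the values of single bins and windows, whose counting errors stand beside them in the text. No paired analysis was possible because each group has 1 library and no test across replicates was made.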
